A study of Rattus norvegicus with 5 samples.

Results

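Herpud1 and 9 further genes of the unfolded protein response were examined in rat liver: Hspa5, Ddit3, Xbp1, Atf4, Atf6, Ern1, Hsp90b1, Dnajb9 and Sel1l. The set was put together with the strain comparison of these arrays already known, and Herpud1 leads it, so the strain differences of these 10 genes are given as a description and support nothing on their own. A gene counted as measured where the platform annotation paired a probe set with it alone. This held for 8 of the 10, out of 7589 genes on the array. Atf6 and Ern1 are not analysed here.

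The livers came from male rats aged 4 months on standard chow, of the PD strain and of PD.SHR4, a congenic strain named PD.SHR4a in the series text. The strain carries a piece of chromosome 4 from SHR, the spontaneously hypertensive rat, on the PD background, and the series title calls it Cd36-deficient. Labelled cDNA from 8 rats was pooled for each strain and hybridised to 3 arrays for PD and 2 for PD.SHR4. The labels do not say whether the arrays of a strain held 1 pool or different ones, and nothing in them ties an array to separate rats. Every error and p-value below therefore covers only the spread between arrays, which may be technical.

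When unfolded proteins build up in the endoplasmic reticulum (ER), 3 sensors in its membrane respond. IRE1 (gene Ern1) cuts the Xbp1 messenger so that it can be rejoined into the form that encodes an active transcription factor, ATF6 is cleaved in the Golgi to free another factor, and PERK (gene Eif2ak3) slows translation while favouring that of ATF4. These factors bind short promoter elements and raise chaperones, folding enzymes and the machinery that sends misfolded proteins to the proteasome. Hepatocytes secrete most plasma proteins and so carry a large ER, and in liver XBP1 is also known for a role in lipid synthesis.

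The promoters of 4 members are shown because they hold the stress elements through which these factors are known to act. The sequences are RefSeq's for the reference rat (GRCr8), not those of PD or PD.SHR4, and each runs 5′ to 3′ on the gene's strand from 250 bases before to 50 bases after the annotated start. Capitals mark matches to the elements named after the sequences.
Herpud1, chr19:10614658-10614957, minus strand: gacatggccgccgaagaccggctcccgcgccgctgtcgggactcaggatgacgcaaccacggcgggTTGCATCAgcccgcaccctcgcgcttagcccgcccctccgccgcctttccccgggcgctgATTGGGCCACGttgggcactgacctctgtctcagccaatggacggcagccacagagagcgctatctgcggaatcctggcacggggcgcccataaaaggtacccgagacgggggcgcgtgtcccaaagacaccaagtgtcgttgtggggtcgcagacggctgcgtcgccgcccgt
Xbp1, chr14:84604373-84604672, plus strand: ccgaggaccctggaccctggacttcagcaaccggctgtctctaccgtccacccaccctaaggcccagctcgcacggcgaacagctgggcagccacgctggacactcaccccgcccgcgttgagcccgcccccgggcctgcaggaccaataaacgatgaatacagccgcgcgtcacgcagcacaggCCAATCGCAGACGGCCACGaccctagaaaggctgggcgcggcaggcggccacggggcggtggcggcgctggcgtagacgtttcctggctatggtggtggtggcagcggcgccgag
Hspa5, chr3:38452766-38453065, plus strand: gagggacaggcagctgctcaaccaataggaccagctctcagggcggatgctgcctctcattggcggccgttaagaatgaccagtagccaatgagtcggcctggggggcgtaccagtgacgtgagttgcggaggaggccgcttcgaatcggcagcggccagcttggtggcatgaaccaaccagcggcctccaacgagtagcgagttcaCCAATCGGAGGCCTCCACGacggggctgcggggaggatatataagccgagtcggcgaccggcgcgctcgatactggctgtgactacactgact
Hsp90b1, chr7:23012244-23012543, minus strand: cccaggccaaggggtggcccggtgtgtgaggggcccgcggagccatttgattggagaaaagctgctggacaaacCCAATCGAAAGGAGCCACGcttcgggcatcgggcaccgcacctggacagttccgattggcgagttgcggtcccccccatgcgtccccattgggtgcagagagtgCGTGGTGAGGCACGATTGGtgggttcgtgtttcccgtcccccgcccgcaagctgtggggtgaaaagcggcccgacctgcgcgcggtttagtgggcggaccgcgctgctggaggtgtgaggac

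Both strands were searched for 4 elements. ERSE (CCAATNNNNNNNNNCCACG) and ERSE-II (ATTGGNCCACG) are known as sites of ATF6, CARE (TGATGNAA) of ATF4, and the UPRE core (TGACGTGG) of XBP1. The ERSE and ERSE-II patterns end in the same 5 letters, so any match to either also holds CCACG. In Herpud1 the forward ERSE-II read ATTGGGCCACG, from base -124 to -114 counted from the start, and a CARE lay on the opposite strand from -184 to -177, reading TGATGCAA. Xbp1 held 1 ERSE, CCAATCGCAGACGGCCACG, from -65 to -47. Hspa5 held 1, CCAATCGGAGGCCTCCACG, from -43 to -25. Hsp90b1 held 2, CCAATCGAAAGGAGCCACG from -176 to -158 and, on the opposite strand, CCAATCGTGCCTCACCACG from -72 to -54.

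All 8 measured members had a promoter in the table. An ERSE was in 3 of the 8 (37.5%), against 21 of 27457 rat promoters of the same length (0.0765%). ERSE-II was in 1 of the 8, against 0.0546% of all promoters, and CARE in 1, against 3.82%. None of the 8 held the UPRE core, which was in 0.637% of all promoters. Atf4, Ddit3, Dnajb9 and Sel1l held none of the 4 patterns in this window, which says only that these letters are not there. The 4 patterns were chosen as known elements of this response, so matches in its genes are no finding of these data. These shares and those further on describe the promoters and test nothing.

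Cd36 served as a check of the labels. Its probe set, shared with the neighbouring Cd36l1, measured 7.35, 7.83 and 7.93 in PD and 4.18 and 4.85 in PD.SHR4. Values are log2 RMA expression values throughout, so a difference of 1 is a doubling, and all differences are PD.SHR4 minus PD. Array medians lay between 5.21 and 5.38, and the 8 members were above the array median on every array. Hepatocyte markers were bright in both strains: Alb averaged 13.20 in PD and 13.25 in PD.SHR4. The summed level of the 8 hepatocyte markers measured, of 10 listed, was 15.62 to 15.72 in PD and 15.75 and 15.76 in PD.SHR4. None of the 8 measured members lies on chromosome 4, the chromosome of the introgressed segment. Of the 66 other pathway genes described further on, 6 do (Asns, Creb3l2, Eif2ak3, Fkbp14, Pdia4 and Sec61a1), and whether they lie inside the segment was not tested.

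Of the transcription factors, Xbp1 lay higher in PD.SHR4, Atf4 lower and Ddit3 neither. Xbp1, the factor made active by IRE1, measured 10.50, 10.69 and 10.50 in PD and 11.42 and 11.21 in PD.SHR4. Both congenic arrays were above every PD array, and the difference was 0.75 ± 0.13 (standard error, SE, of the moderated limma fit), or 1.68-fold. The probe set summarises the whole gene, so the spliced and unspliced forms were not separated.

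Atf4, the factor favoured when PERK slows translation, measured 10.43, 10.35 and 10.51 in PD and 10.12 and 9.89 in PD.SHR4. Here both congenic arrays were below every PD array, with a difference of -0.43 ± 0.13 (SE), or 1.34-fold lower. Atf4 is controlled largely at translation, which these arrays do not measure.

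Ddit3 encodes CHOP, a factor of prolonged ER stress that ATF4 induces. It measured 6.34, 6.05 and 6.20 in PD and 6.07 and 6.13 in PD.SHR4, so the congenic arrays lay inside the PD range, and the difference was -0.095 ± 0.13 (SE).

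Of the 3 chaperone genes among the members, Dnajb9 alone lay higher in PD.SHR4 without overlap. Dnajb9 (ERdj4), a co-chaperone that guides misfolded proteins to degradation and is a known XBP1 target, measured 9.21, 9.11 and 9.44 in PD and 9.74 and 9.79 in PD.SHR4. The arrays did not overlap, and the difference was 0.51 ± 0.14 (SE), or 1.42-fold.

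Hspa5 encodes BiP, the main ER chaperone, which also holds the sensors inactive. It measured 12.11, 12.15 and 12.29 in PD and 12.03 and 12.08 in PD.SHR4. The congenic arrays were just below the PD arrays, with a difference of -0.12 ± 0.12 (SE), about the size of its error, and they overlapped PD with arrays aligned on their medians and with a second round of quantile normalisation. Hsp90b1, the ER member of the HSP90 family (GRP94), measured 9.93, 10.03 and 9.84 in PD and 9.78 and 10.01 in PD.SHR4, which overlapped almost completely. Its difference was -0.039 ± 0.13 (SE) and had no settled sign, being 0.015 under the first of those scalings and -0.011 under the second.

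Herpud1 encodes a membrane protein that assembles the ER degradation complex around the HRD1 ubiquitin ligase, and its transcript is among the most strongly induced in ER stress. It measured 8.68, 8.59 and 8.55 in PD and 9.41 and 9.48 in PD.SHR4. The 2 congenic arrays were close together and well above PD, and the difference of 0.84 ± 0.11 (SE), or 1.79-fold, was the largest of the 8. Sel1l, the partner that stabilises HRD1 in the same complex, measured 8.91, 8.94 and 8.96 in PD and 8.75 and 8.94 in PD.SHR4. Its arrays overlapped, with a difference of -0.095 ± 0.12 (SE).

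**Figure D1:**
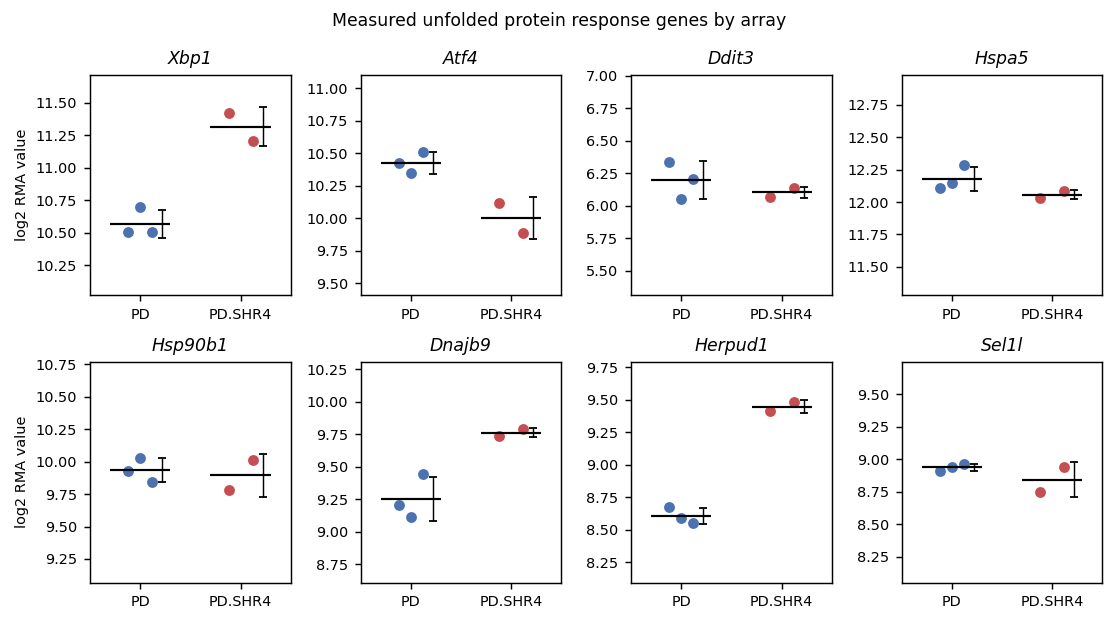
Log2 RMA value of the 8 measured genes in each PD (blue, 3 arrays) and PD.SHR4 (red, 2 arrays) array, every panel spanning the same range of log2 units; the horizontal line is the mean and the bar 1 SD. Xbp1, Dnajb9 and Herpud1 sit higher in both PD.SHR4 arrays than in any PD array, Atf4 and by a smaller margin Hspa5 sit lower, and the arrays of Ddit3, Hsp90b1 and Sel1l overlap.

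Counted together, PD and PD.SHR4 arrays did not overlap for 5 of the 8 members, 3 of them higher and 2 lower in PD.SHR4. Over all 8797 probe sets 31.9% did not overlap, 14.8% higher and 17.1% lower. The share moves with brightness: among the 1755 genes whose mean level was in the top 25% of probe sets, 50.9% did not overlap. Herpud1 alone of the 8 passed limma's threshold (Benjamini-Hochberg adjusted p under 0.05 over all probe sets), where 0.932% of all probe sets passed, 0.273% as higher and 0.659% as lower. Since the members were chosen with this contrast known, nothing is read from that count. The median difference of the 8 was -0.067, against 0.0030 over all genes, and the median size of the difference, taken without sign, was 0.27 against 0.15. Herpud1 did not pass with any 1 of the 3 PD arrays left out, after the second quantile normalisation or with the array number as a block. With any 1 of the 5 arrays left out its difference stayed between 0.81 and 0.88.

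**Figure D2:**
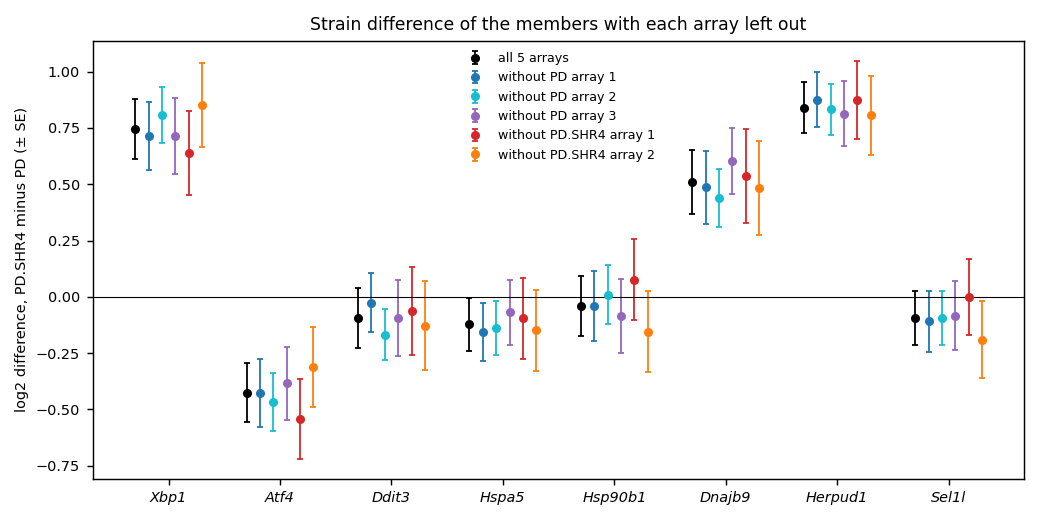
Log2 difference (PD.SHR4 minus PD) of each member with all 5 arrays and with each array left out in turn; bars are the SE of the moderated fit. The differences of Herpud1 (0.81 to 0.88 with an array left out), Xbp1 (0.64 to 0.85) and Dnajb9 (0.44 to 0.60) remain above 0 and that of Atf4 (-0.54 to -0.31) below 0, which non-overlapping arrays fix in advance, while Hsp90b1 takes both signs (-0.15 to 0.077).

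The 6 genes whose profiles over the 5 arrays were nearest to that of Herpud1 were Dhrs4, Or4k35, Scnn1a, Acaa2, Pnpla7 and Map1lc3b. Likeness was the root mean square distance between profiles, each centred on its own mean, and ran from 0.054 for Dhrs4 to 0.090 for Map1lc3b on the log2 scale. Dhrs4, a dehydrogenase/reductase of retinoids and other carbonyls, measured 8.64, 8.66 and 8.67 in PD and 9.44 and 9.56 in PD.SHR4, and Pnpla7, a lysophospholipase, 8.92, 8.79 and 8.99 against 9.77 and 9.74. Acaa2, the thiolase of mitochondrial fatty acid oxidation, averaged 11.8 in PD and 12.5 in PD.SHR4, and Map1lc3b, the LC3B protein of autophagosomes, 10.2 and 10.9. Scnn1a, a sodium channel subunit, averaged 4.37 and 5.21. It lies on chromosome 4, and whether it lies inside the introgressed segment was not tested. The olfactory receptor gene Or4k35 averaged 1.58 and 2.35, below the lower quartile of every array. Of the other members, Xbp1 was the nearest, 24th among 7588 genes at a distance of 0.13, and Dnajb9 was 130th at 0.21. The other 5 ranked between 3619 for Hsp90b1 and 6734 for Atf4. Over so few arrays this distance follows mainly the size of the strain difference. That difference was known when the set was made, so the ranks restate it and add no support.

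The rest of the pathway was read from 5 lists by role, with 66 of 122 genes measured. These lists too were drawn up with earlier results of these data known, so their counts are given as a description. Only 1 of the 66 passed the limma threshold, as lower, against 0.932% of all probe sets. At an unadjusted p under 0.05 there were 3 higher and 13 lower, against 13.8% of all probe sets in either direction. That share too moves with brightness: of the 1755 bright genes, 196 were higher and 228 lower at this p. The lists differed in which way their genes lay, and their median differences ran from -0.38 for chaperones and folding enzymes to 0.11 for ER-associated degradation.

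**Figure D3:**
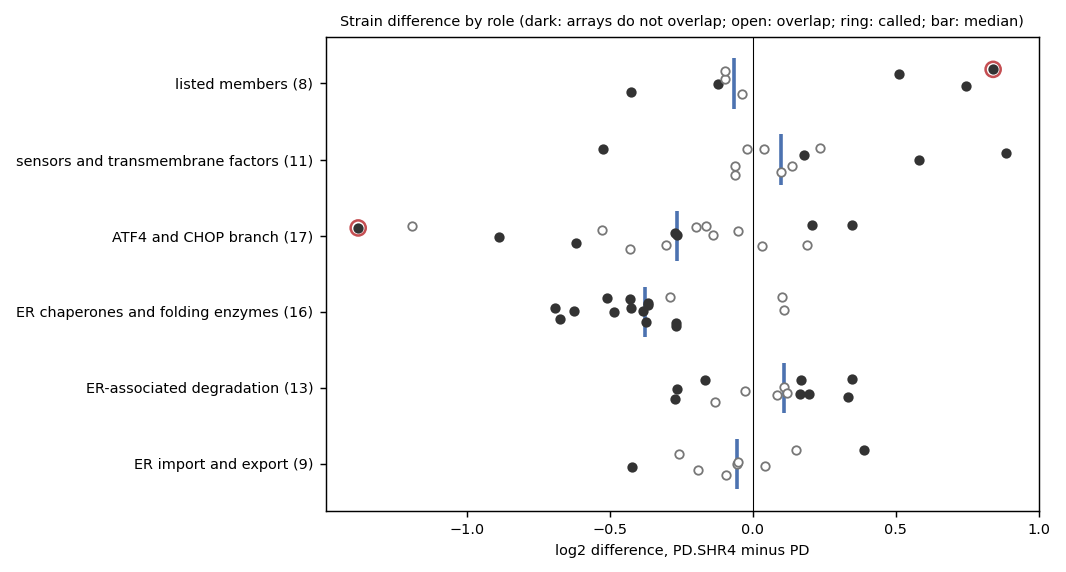
Log2 difference (PD.SHR4 minus PD) of each measured gene, grouped by role, with the number of genes in brackets; dark points are genes whose strains' arrays do not overlap, open points overlap, a ring marks a gene past the limma threshold and the blue bar is the median of the list. Chaperones and folding enzymes lie mostly below 0 (14 of 16), and the ringed genes are Herpud1 and Nupr1.

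ER chaperones and folding enzymes lay mostly lower in the congenic strain. Of 16 measured, 14 had differences below 0, and in 13 both PD.SHR4 arrays were below every PD array (81.2%, against 25.3% of those 1755 bright genes and 17.1% of all probe sets). None passed the limma threshold, and 9 had an unadjusted p under 0.05, all of them lower. Over all probe sets 13.8% were under it in either direction, and of those 1755 bright genes 196 were higher and 228 lower. The same number, 13, lay lower without overlap under both other scalings, where Canx and Ero1a lay higher without overlap.

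Pdia6, a protein disulphide isomerase that also damps IRE1, measured 10.78, 11.12 and 11.01 in PD and 10.23 and 10.33 in PD.SHR4, a difference of -0.69 ± 0.15 (SE; limma adjusted p = 0.109). Calr, the lectin chaperone calreticulin, measured 11.41, 11.60 and 11.54 against 10.98 and 11.09 (difference -0.48 ± 0.12 SE; limma adjusted p = 0.168). Both had PD.SHR4 arrays clear of the PD range. Dnajb11, a BiP co-chaperone, measured 8.87, 9.13 and 9.18 against 8.48 and 8.62 (difference -0.51 ± 0.14 SE; limma adjusted p = 0.196). Pdia3, the isomerase that works with calreticulin, measured 11.13, 11.34 and 11.20 against 10.74 and 10.86 (difference -0.42 ± 0.13 SE; limma adjusted p = 0.221). The 2 genes with differences above 0, named here after their values were seen, were calnexin, Canx (0.10 ± 0.12 SE), the membrane-bound counterpart of calreticulin, and the oxidase Ero1a (0.11 ± 0.12 SE), and the arrays of both overlapped.

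**Figure D4:**
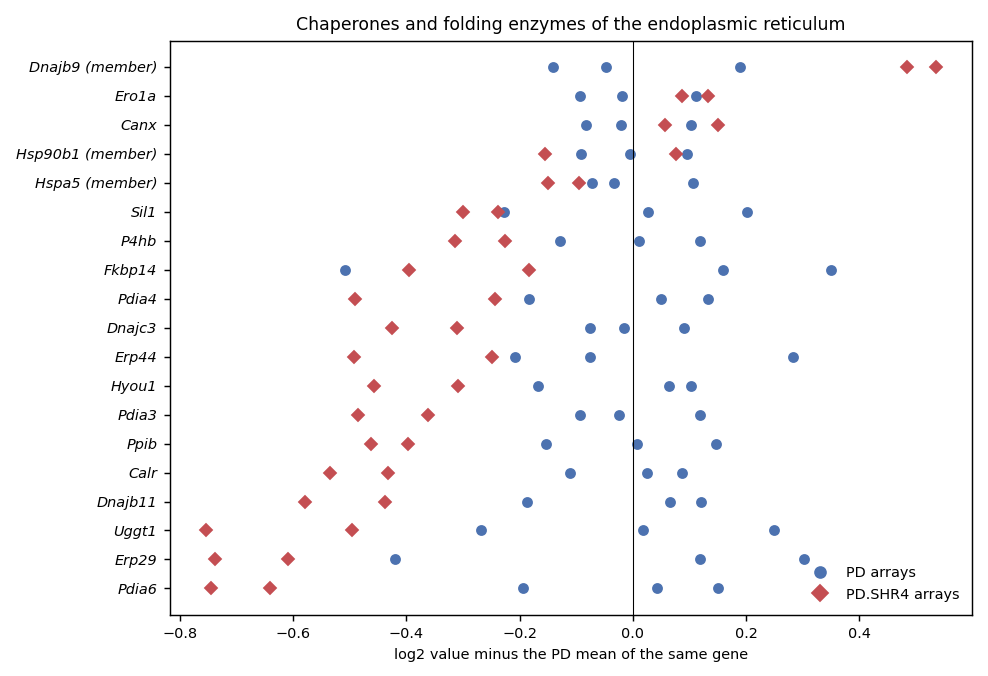
Log2 value of each array minus the PD mean of the same gene, for the 16 measured chaperones and folding enzymes and the members Hspa5, Hsp90b1 and Dnajb9, ordered by strain difference; blue circles are PD arrays and red diamonds PD.SHR4 arrays. From Sil1 downward the PD.SHR4 arrays lie left of the PD arrays in every gene except Fkbp14, and Dnajb9 at the top is the gene with both PD.SHR4 arrays to the right of PD.

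In the ATF4 and CHOP list, 13 of 17 measured genes had differences below 0, with a median of -0.27. Nupr1, a small stress-induced chromatin protein, fell: it measured 11.19, 10.80 and 10.99 in PD and 9.77 and 9.46 in PD.SHR4, a difference of -1.38 ± 0.17 (SE), or 2.60-fold lower (limma adjusted p = 0.0392). It was the single gene of the 17 that passed, and it did not pass with any 1 of the 5 arrays left out (limma adjusted p = 0.0510 to 0.373) or after the second quantile normalisation (limma adjusted p = 0.0514), in a range of 0.00485 to 0.373 over all 11 alternative fits. The other 16 did not pass. Ddit4, an inhibitor of the growth kinase complex mTORC1, measured 6.38, 6.04 and 6.50 against 5.90 and 5.48 (difference -0.62 ± 0.20 SE; limma adjusted p = 0.252). Eif4ebp1, a translation repressor that ATF4 induces, measured 8.15, 8.00 and 8.00 against 7.77 and 7.80 (difference -0.27 ± 0.12 SE; limma adjusted p = 0.407). For both, the PD.SHR4 arrays were below all PD arrays.

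PD array 2 stood apart from the other PD arrays in several ATF4 targets, and not in these alone. Its median was 5.378, against 5.207 and 5.265 for PD arrays 1 and 3. Over all probe sets it correlated with PD arrays 1 and 3 at r = 0.98787 and 0.99085, against 0.99226 between those 2. Arrays of different strains reached at most 0.98744. Asns, asparagine synthetase, measured 5.41, 4.57 and 5.98 in PD and 4.49 and 4.37 in PD.SHR4, and Trib3, a pseudokinase that restrains ATF4 and CHOP, 7.16, 5.56 and 7.11 in PD and 5.02 and 5.81 in PD.SHR4. With all arrays the difference was -0.89 ± 0.39 (SE) for Asns and -1.19 ± 0.54 (SE) for Trib3. Without PD array 2 these were -1.26 ± 0.22 and -1.72 ± 0.28 (SE; limma adjusted p = 0.0895 and 0.0836). Fgf21, a liver hormone, chosen here after its values were seen, measured 7.91, 5.99 and 8.32 in PD and 7.20 and 7.34 in PD.SHR4. Its difference of -0.14 ± 0.67 (SE) became -0.85 ± 0.18 without PD array 2, and was above 0 without PD array 1 (0.11) or PD array 3 (0.32). Among the 17 genes, 5 lay lower without overlap over all arrays (29.4%, against 1287 of all 7589 genes) and 10 without PD array 2 (58.8%, against 22.6% of all genes). PD array 2 was singled out for its low values in these targets. The larger count and differences without it follow from that choice, and the share over all genes is no fair measure for them. Leaving out any array can only keep or raise such a count. Dropping PD array 1 or 3 gave 7 and 5 such genes (41.2% and 29.4%, against 26% and 21% of all genes). Dropping PD.SHR4 array 1 or 2 gave 9 and 6 (52.9% and 35.3%, against 27.6% and 25.2% of all genes). For Herpud1 the PD arrays spanned 0.12, against 2.33 for Fgf21.

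A CARE match was in 3 of the 15 promoters of this list (20.0%, against 3.82% of all promoters): Nupr1 from -55 to -48 (TGATGCAA), Trib3 from -21 to -14 (TGATGTAA) and Fgf21 from -143 to -136 (TGATGCAA), all on the opposite strand. The same element is the one in capitals at the left of the Herpud1 promoter, whose gene lay higher in PD.SHR4. Among 13 promoters of chaperones and folding enzymes, 3 held an ERSE (23.1%): Calr with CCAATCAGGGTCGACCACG, Canx with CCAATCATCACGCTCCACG and Dnajc3 with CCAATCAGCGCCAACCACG. Dnajb11 (-0.51) and Hyou1 (-0.38) held ERSE-II, as did Herpud1 (0.84), and Hyou1 and the degradation gene Vcp (0.20) a UPRE core. Genes with an ERSE included Xbp1 (0.75), which lay higher without overlap, and Dnajc3 (-0.37) and Calr (-0.48), which lay lower without overlap. Hspa5 also lay lower without overlap, but only by about its error (-0.12 ± 0.12 SE), and its arrays overlapped under both other scalings. The arrays of Canx and Hsp90b1 overlapped. Genes were named in this paragraph for their promoter match.

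**Figure D5:**
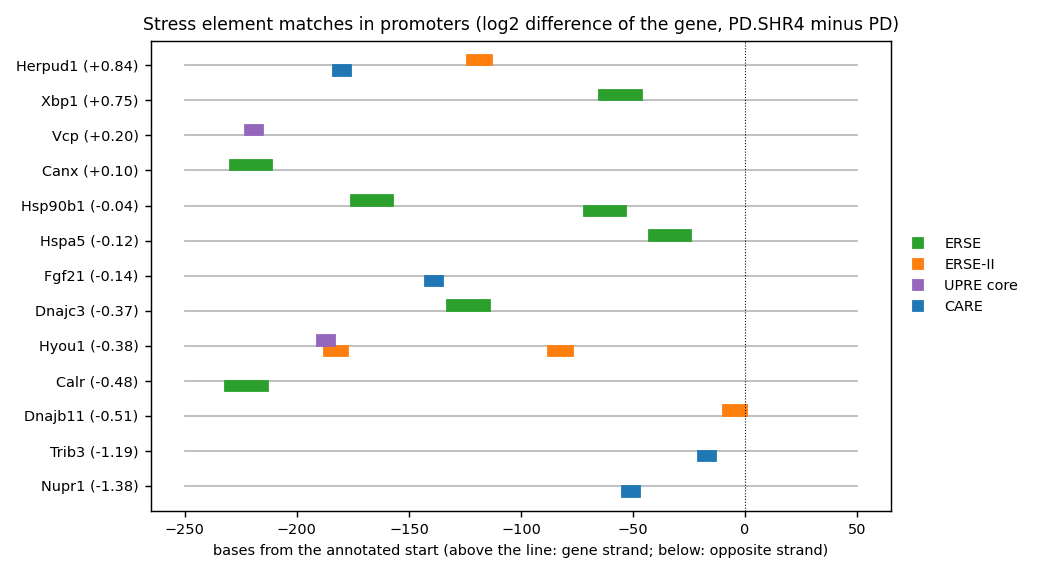
Position of matches to ERSE, ERSE-II, the UPRE core and CARE in the promoters of measured pathway genes that hold any, in bases from the annotated start, drawn above the line for the gene's strand and below it for the opposite strand. Genes are ordered by log2 difference (PD.SHR4 minus PD, in brackets), from 0.84 for Herpud1 at the top to -1.38 for Nupr1 at the bottom, and ERSE matches occur in genes on both sides of 0.

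Of 11 measured sensors and transmembrane factors, 7 had differences above 0 and none passed the limma threshold, with 2 higher and 1 lower at an unadjusted p under 0.05 (13.8% of all probe sets). Rtcb, the ligase that rejoins the Xbp1 messenger after IRE1 has cut it, measured 5.80, 5.99 and 5.61 in PD and 6.46 and 6.92 in PD.SHR4 (difference 0.89 ± 0.19 SE; limma adjusted p = 0.115). Creb3l3, a liver-enriched membrane factor of the ATF6 kind also called CREBH, measured 10.03, 9.73 and 10.05 against 10.48 and 10.55 (difference 0.58 ± 0.14 SE; limma adjusted p = 0.161). Both lay above all PD arrays in PD.SHR4. Creb3l1, a related factor of secretory and matrix-forming cells, lay the other way, at 6.21, 6.25 and 6.35 against 5.78 and 5.72 (difference -0.52 ± 0.11 SE; limma adjusted p = 0.121). Mbtps1, the protease that makes the first cut in ATF6, had a difference of 0.18 ± 0.11 (SE). Eif2ak3, the PERK gene, chosen after its value was seen, had a difference of -0.063 ± 0.16 (SE), and its arrays overlapped.

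ER-associated degradation held 13 measured genes besides Herpud1 and Sel1l, 8 with differences above 0 and 5 below, and none passed limma's threshold or an unadjusted p under 0.05. The arrays did not overlap in 8 (61.5%, against 31.9% of all probe sets and 50.9% of the 1755 bright genes), 5 higher and 3 lower. Ubqln1, which carries ubiquitinated proteins to the proteasome and binds Herpud1, had a difference of 0.33 ± 0.14 (SE), and Nploc4, a cofactor of the extracting ATPase VCP, 0.35 ± 0.15 (SE). Selenos, a membrane selenoprotein that recruits VCP, had -0.27 ± 0.13 (SE) and the ubiquitin ligase Rnf5 -0.26 ± 0.14 (SE). All 4 differences were smaller in size than that of Herpud1.

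Of 9 measured genes of ER import and export, 3 had differences above 0 and 6 below, and none passed limma's threshold, with 1 higher and 1 lower at an unadjusted p under 0.05 (13.8% of all probe sets). Ssr4, a subunit of the complex beside the translocation channel, measured 9.87, 10.01 and 10.02 in PD and 9.58 and 9.51 in PD.SHR4 (difference -0.42 ± 0.12 SE; limma adjusted p = 0.196). Srp54, the subunit of the signal recognition particle that reads the signal peptide, lay higher, at 8.07, 8.40 and 8.30 against 8.59 and 8.69 (difference 0.39 ± 0.14 SE; limma adjusted p = 0.312). Ssr3 and Srprb, a receptor subunit for the particle, had differences of -0.26 ± 0.18 and -0.19 ± 0.14 (SE), with overlapping arrays.

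Markers of immune cells lay mostly lower in the congenic strain beside these results. Over all probe sets, 17.1% lay lower without overlap. Of 5 measured macrophage and Kupffer cell markers, 4 lay lower without overlap, and the summed level of the 5 was 11.35 to 11.54 in PD and 11.05 to 11.17 in PD.SHR4. The remaining marker, Clec4f, was the brightest of the 5. Its difference was -0.079 ± 0.13 (SE), and its arrays overlapped. Of 8 lymphocyte markers 6 lay lower without overlap (summed 8.67 to 8.96 against 8.15 to 8.21), as did both neutrophil markers (7.15 to 7.52 against 6.63 to 6.78), both erythroid markers (10.88 to 11.19 against 10.31 to 10.59) and Emcn, the single endothelial marker measured (5.74 to 6.17 against 5.003 to 5.52). The other 2 lymphocyte markers, Cd2 (0.20) and Cd4 (0.063), had differences above 0 and overlapping arrays. Cd4, Cd8a, Klrk1 and the Kupffer cell marker Clec4f lie on chromosome 4, and whether they lie inside the introgressed segment was not tested. None of the 45 markers measured over 10 lists passed the limma threshold, against 0.932% of all probe sets, and 2 higher and 15 lower had an unadjusted p under 0.05, against 13.8% in either direction. Of the plasma cell list, whose cells are rich in Xbp1 and ER chaperones, only Sdc1 was measured, a gene hepatocytes also express, with a difference of -0.061 ± 0.17 (SE). The 9 measured markers of pancreatic acinar cells, another secretory type, summed to 7.61 to 7.83 in PD and 7.70 to 7.73 in PD.SHR4. Of the 8 hepatocyte markers 7 had differences above 0, the largest 0.43 for Cyp2e1, and 4 lay higher and 1 lower without overlap. Over all probe sets 14.8% lay higher without overlap, and 25.6% of the 1755 bright genes did. The 7 stellate cell markers summed to 9.54 to 9.67 and 9.48 to 9.71, and the 2 cholangiocyte markers to 6.83 to 7.39 and 6.95 to 7.02. In whole liver, fewer cells of a type and less RNA per cell cannot be told apart, and the part of these cells in the chaperone and ATF4 values was not tested.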

How the data were processed

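Liver cDNA pooled by strain was measured on 3 PD and 2 PD.SHR4 Affymetrix Rat Exon 1.0 ST arrays. The deposited log2 values were computed by the authors with RMA (background correction, quantile normalisation and probe summary) in Expression Console at the core-gene level, per the labels; RMA and Partek also appear in the submitters' processing notes. No software version, annotation release or genome build is given in the sources used here. Without detection calls, a low value is not an absence, and precision is limited by the number of arrays.

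Of 8797 probe sets, 7603 had 1 gene symbol in GEO's platform annotation, 409 several and 785 none there. Gene IDs of 7584 matched RefSeq (GRCr8), and the brightest probe set stood for a gene. Strain differences were fitted in R 4.3.3 with limma 3.58.1 (lmFit, eBayes, two-sided, all 5 arrays, no covariate), adjusted by Benjamini-Hochberg over all probe sets at 0.05, and the code was tested on simulated data. Of 74 measured pathway genes, 62 had a RefSeq promoter, the first listed per gene.

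Members and lists were chosen with earlier results of these data known. Named were the members, in each other list the genes past the threshold and up to 4 more by smallest p, the 6 profiles nearest to Herpud1, cell markers and Cd36. The strains share array numbers 1 and 2, but nothing in the labels says that a number marks a shared batch, so no block was used. Alternatives (each array left out, the number as a block, other shrinkage, filter, scaling, weights and motif length) are given in the closing section.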

Additional observations from a re-analysis of the deposited data

How the results depend on the processing

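The 8 members kept the sign of their difference under all 11 alternative fits except Hsp90b1, which kept it in 7. Several of the fits could not change a sign. Trended robust shrinkage and leaving out the dimmest probe sets return the main difference, and leaving out an array cannot turn a gene whose arrays do not overlap. Over all 11 fits the difference of Herpud1 was 0.81 to 0.89, of Xbp1 0.64 to 0.85, of Dnajb9 0.36 to 0.60 and of Atf4 -0.54 to -0.31. Calls were less stable than values. With each array left out, limma called 0 to 55 probe sets in place of 82 (28 when PD array 1 was dropped, 18 for PD array 3 and 0 for either PD.SHR4 array, where 737 or 710 had an unadjusted p under 0.05), and each time 0 of the members in place of 1 and 0 of the other pathway genes in place of 1. With the replicate block the counts were 163 probe sets, 0 members and 1 other pathway gene. Same-numbered arrays deviated together by r = 0.050 and 0.082 over all probe sets, across only 2 pairs. The 2 PD.SHR4 arrays deviate from their own mean as mirror images, so these are not 2 separate checks. They cannot settle whether the numbers pair the arrays, and the labels name no shared batch. With trended robust shrinkage the counts were 151, 2 (Herpud1 and Xbp1) and 1, and without the dimmest 25% of probe sets 149, 1 and 1. Median centring gave 100, 2 (Herpud1 and Xbp1) and 1, a further quantile normalisation 112, 1 (Xbp1) and 0, and array weights 819, 3 (Herpud1, Xbp1 and Atf4) and 15. The lower share of all calls was 70.7% in the main comparison, 59.0% after median centring and 58.0% after quantile normalisation. No pathway gene had more than 1 probe set, so that alternative gave no value. The CCACG core alone was in all 8 member promoters in place of 3 with an ERSE, but also in 32.5% of all promoters. With 2 arrays in a strain and pooled cDNA, differences between rats could not be measured.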
